A study of Mus musculus with 12 samples.

Results

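The 10 genes described here encode nuclear receptors that sense lipids, with their partners. They were chosen by symbol, and all 10 were found among the 19037 genes measured in AML12 cells, a hepatocyte line derived from the liver of a mouse transgenic for human TGF-alpha. Nuclear receptors are transcription factors whose activity changes when a small lipid binds them. The PPARs (Ppara, Ppard and Pparg) bind fatty acids, the LXRs (Nr1h2 and Nr1h3) bind oxysterols, and FXR (Nr1h4) binds bile acids. Each of these pairs with an RXR, of which only Rxra is among the 10 genes. In liver these receptors govern fatty acid oxidation, cholesterol removal, lipid synthesis and bile acid supply. Nr0b2 encodes SHP, a repressor that FXR induces. Esrra encodes an orphan receptor of energy metabolism, and Ppargc1a encodes the coactivator it works with.

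The study comprises 12 RNA libraries, with 3 per group: cells given FK228, cells that overexpress YF-mutated class I HDACs (histone deacetylases), cells with both, and control cells. FK228 (romidepsin) is an inhibitor of class I HDACs, so the design set chemical inhibition beside the mutants, alone and together. The labels state no dose, treatment time or vector, and do not name the mutated HDACs. An unexplained code with GFP stands in the descriptions of FK228 and control libraries. Whether replicate libraries were separate cultures is not stated, so each p-value reflects spread among libraries that may be technical only.

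Libraries held 23664446 to 26122998 counts, and 13346 genes passed the filter on low counts. Of the 10 genes, 9 passed it and Nr0b2 did not. Against control, 68.8% of all tested genes were called with FK228, 32.6% with YF and 77.4% with both. A call is an adjusted p under 0.05 in edgeR's quasi-likelihood test. Hdac1 was the class I HDAC gene with the highest CPM (counts scaled to library size) in YF cells, at 402 ± 18.9 CPM in YF cells and 798 ± 2.16 with both, against 97.7 ± 5.14 in control cells (SD, n = 3 each). Hdac8 was also higher, at 42.1 ± 2.02 CPM in YF cells and 38.7 ± 0.782 with both, against 17.9 ± 0.567 in control cells. Hdac3 was at 113 ± 3.07 and 144 ± 3.39 CPM in those groups, against 105 ± 2.66. Hdac2 was at 189 ± 4.75 and 177 ± 10.4 CPM, against 176 ± 7.6. Several defining hepatocyte genes were near 0 in every group: Alb, Apoa2, Serpina1a and Tat were all under 1 TPM (transcript abundance scaled to library size and transcript length). The summed TPM of 10 hepatocyte markers was 185 to 242 in FK228 libraries, 403 to 470 in YF libraries and 206 to 229 with both, against 355 to 419 in control libraries. Most of this sum was Trf (181, 356 and 194 TPM in those treated groups, against 278 in control cells). Of the 8 markers tested, 0 were higher and 6 lower with FK228, 2 and 3 with YF, and 0 and 7 with both, with median log2 fold changes of -1.34, -0.34 and -1.76. In bulk RNA, fewer cells of a type and less RNA per cell cannot be told apart.

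In GRCm38.p6 the genes span 85734910 to 85806851 on chromosome 15 (Ppara, plus strand), 28232754 to 28301469 on 17 (Ppard, plus), 115360879 to 115490404 on 6 (Pparg, plus), 44549616 to 44553968 on 7 (Nr1h2, minus) and 91184061 to 91202829 on 2 (Nr1h3, minus). The others span 89454234 to 89533645 on chromosome 10 (Nr1h4, minus), 27676445 to 27763319 on 2 (Rxra, plus), 133553376 to 133556686 on 4 (Nr0b2, plus), 6910977 to 6922048 on 19 (Esrra, minus) and 51454249 to 52115853 on 5 (Ppargc1a, minus). Annotated start sites of genes that moved in opposite directions are shown here: Nr1h3 and Nr1h4 fell in every FK228-treated group, and Ppara and Ppard rose. Counts per gene do not say which start site the cells used. The windows are from RefSeq (GRCm38.p6), 5′ to 3′ on the gene's strand, with 250 bases before and 50 after a start. Capitals mark matches on either strand to the GC box, spelled GGGCGG, to the CCAAT box, or to the element bound by these receptors, spelled AGGTCA. Nr1h3 (first of 2 overlapping windows) is at chr2:91195067-91195366 and Nr1h4 at chr10:89506609-89506908, both on the minus strand. Ppara is at chr15:85735526-85735825 and Ppard at chr17:28232504-28232803, both on the plus strand.
Nr1h3: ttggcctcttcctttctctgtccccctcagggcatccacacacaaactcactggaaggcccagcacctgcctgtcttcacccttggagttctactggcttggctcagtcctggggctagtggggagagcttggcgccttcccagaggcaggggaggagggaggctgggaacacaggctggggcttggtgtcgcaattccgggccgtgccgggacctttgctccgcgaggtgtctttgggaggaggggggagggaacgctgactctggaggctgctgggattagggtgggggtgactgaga
Nr1h4: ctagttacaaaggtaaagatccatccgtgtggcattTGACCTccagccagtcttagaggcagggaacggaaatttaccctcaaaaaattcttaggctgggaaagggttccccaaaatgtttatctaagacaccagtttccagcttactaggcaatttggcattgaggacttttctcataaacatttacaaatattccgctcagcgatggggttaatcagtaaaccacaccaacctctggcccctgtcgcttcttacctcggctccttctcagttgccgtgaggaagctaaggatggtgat
Ppara: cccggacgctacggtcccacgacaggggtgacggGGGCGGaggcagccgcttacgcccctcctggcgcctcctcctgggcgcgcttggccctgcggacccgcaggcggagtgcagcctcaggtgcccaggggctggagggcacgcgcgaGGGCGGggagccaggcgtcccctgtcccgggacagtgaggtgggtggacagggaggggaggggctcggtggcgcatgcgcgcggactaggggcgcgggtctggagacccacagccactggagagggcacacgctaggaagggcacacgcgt
Ppard: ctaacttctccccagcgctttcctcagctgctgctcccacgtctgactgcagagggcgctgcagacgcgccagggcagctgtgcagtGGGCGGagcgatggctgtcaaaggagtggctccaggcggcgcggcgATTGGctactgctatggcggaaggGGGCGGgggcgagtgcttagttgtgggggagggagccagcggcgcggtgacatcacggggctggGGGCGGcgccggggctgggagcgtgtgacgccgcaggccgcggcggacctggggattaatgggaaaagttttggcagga
The windows of the genes that rose held 30 CpG dinucleotides (Ppara) and 27 (Ppard), and those of the genes that fell held 8 (Nr1h3) and 7 (Nr1h4). The median of all 32851 RefSeq windows was 7. CpG number did not follow direction across all 10 genes: of the 2 windows of Rxra, which fell, 1 held 55 and the other held 1, and the window of Ppargc1a, which rose, held 5.

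Matches were counted in the 14 windows of the 10 genes. No window held AGGTCA as a direct repeat spaced by 1 or 4 bases, or as an inverted repeat spaced by 1 base. None held the ERR site TCAAGGTCA or the cAMP response element TGACGTCA. These are rare in the whole set too, at 0.0396%, 0.0152%, 0.00913%, 0.423% and 1.79% of windows in that order. At least 1 AGGTCA, held by 16.3% of all windows, was in 2 of 3 Pparg windows, in the Nr1h4 window and in 1 of 2 Rxra windows. The GC box, held by 35.7% of all windows, was there 2 times in Ppara, 3 times in Ppard, 2 times in Esrra and 1 time in Nr0b2. It was in 2 of 3 Pparg windows (1 and 2 times) and in 1 of 2 Rxra windows (4 times). None was in the Nr1h2, Nr1h3, Nr1h4 or Ppargc1a windows. Of the printed windows, that of Ppard is at the start of the gene's annotated span. Those of Nr1h3, Nr1h4 and Ppara lie inside the span, at downstream starts, as does that of Ppargc1a. The CCAAT box, held by 37.4% of all windows, was in the windows of Ppard and in 2 of Pparg. A match is a description of letters only.

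Between genes, levels were compared per length, in TPM. In control cells the order was Nr1h2 (97.6 ± 8.08 TPM), Esrra (48.3 ± 1.88), Nr1h4 (36.2 ± 2.8), Nr1h3 (28.2 ± 1.9), Rxra (11.2 ± 0.823), Ppard (10.2 ± 1.3), Pparg (2.58 ± 0.384), Ppargc1a (1.77 ± 0.0723), Ppara (0.29 ± 0.0721) and Nr0b2 (0.08 ± 0.0693). Rxra and Ppard overlapped there, and the other neighbours did not. LXR beta, FXR and LXR alpha were thus well above the PPARs, and Ppara, the main fatty acid receptor of hepatocytes in the liver, was close to the bottom. With both treatments Ppard (17.8 ± 1.15 TPM) stood above Nr1h4 (12.4 ± 1.13) and Nr1h3 (7.45 ± 0.646), with no overlap. Ppara (0.747 ± 0.206) and Pparg (0.55 ± 0.11) overlapped in that group. In FK228 cells Nr1h3 (13.6 ± 1.29 TPM) and Ppard (13 ± 1.56) overlapped. In YF cells Ppard and Rxra overlapped, as did Ppargc1a and Pparg. Deposited FPKM values gave the same order in every group.

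**Figure D1:**
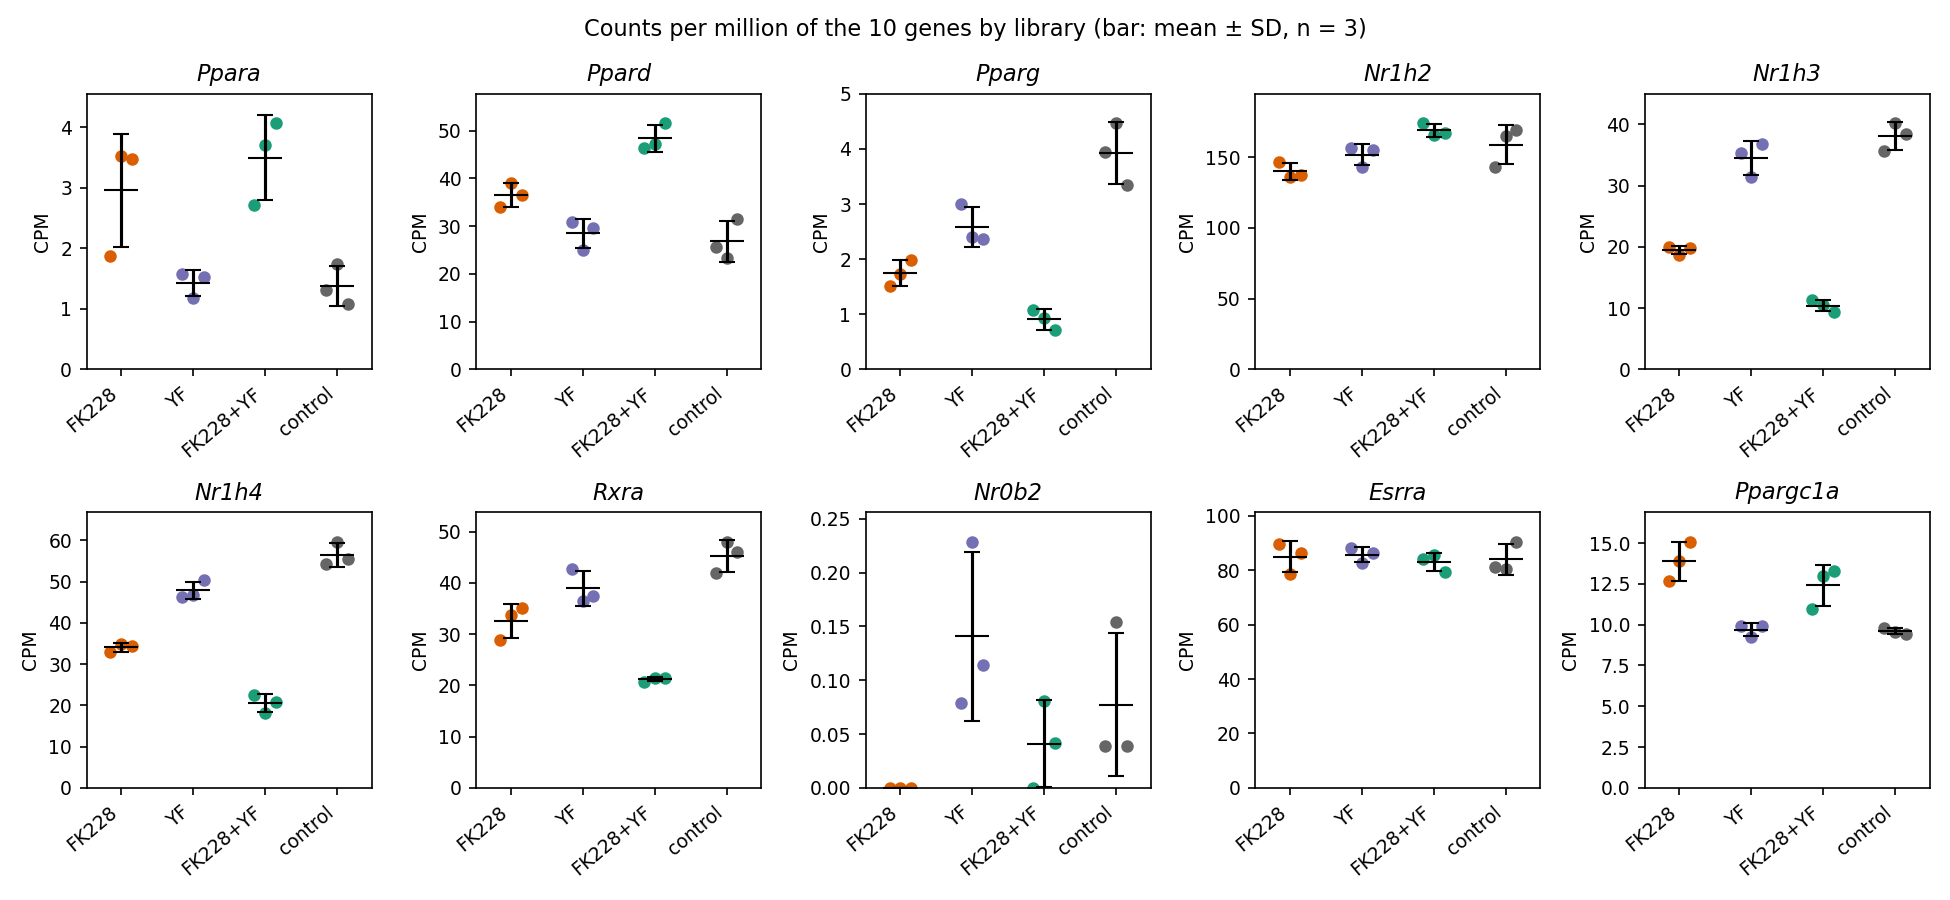
CPM on linear axes from 0 of the 10 genes. Points are libraries, and bars are the mean ± SD of 3 libraries per group. Nr1h3, Nr1h4, Rxra and Pparg are lowest with both treatments, Ppard is highest there, and Esrra overlaps between all 4 groups.

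The PPAR genes did not move together: in FK228 versus control Ppara and Ppard rose and Pparg fell. Ppara, which drives fatty acid oxidation and ketone body synthesis in liver, had 1.88, 3.52 and 3.47 CPM in FK228 libraries, 1.58, 1.18 and 1.52 in YF libraries and 2.71, 3.72 and 4.07 with both, against 1.32, 1.73 and 1.09 in control libraries. Both FK228-treated groups lay above the control libraries without overlap, and YF overlapped with control. Ppara rose 2.14-fold with FK228 (log2 fold change 1.10 ± 0.26, SE; adjusted p = 0.000739, edgeR) and 2.53-fold with both (1.34 ± 0.25; adjusted p = 5.83e-05, edgeR). It rested on few counts, 28 to 97 per library. FK228 replicate 1 was the low library of its group, with 46 counts. Without it the FK228 change was 1.36, and the combination stood at -0.02 against FK228, where all libraries gave 0.24 ± 0.23 (adjusted p = 0.39, edgeR).

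Ppard, a fatty acid receptor found in most tissues, had 34.1, 39.0 and 36.6 CPM in FK228 libraries, 30.9, 25.1 and 29.7 in YF libraries and 46.4, 47.1 and 51.6 with both, against 25.6, 23.4 and 31.6 in control libraries. Every library with both treatments was above every FK228 library, and every FK228 library was above every control library. Ppard rose with FK228 (0.45 ± 0.10; adjusted p = 0.000522, edgeR) and with both (0.85 ± 0.10; adjusted p = 1.4e-07, edgeR). It was also higher with both than with FK228 alone (0.40 ± 0.10; adjusted p = 0.00152, edgeR) or YF alone (0.76 ± 0.10; adjusted p = 8.43e-07, edgeR). In YF versus control it gave 0.09 ± 0.10 and overlapped.

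Pparg, the receptor that drives fat cell formation, had 1.51, 1.74 and 1.98 CPM in FK228 libraries, 3.00, 2.40 and 2.36 in YF libraries and 1.08, 0.929 and 0.713 with both, against 3.95, 4.47 and 3.34 in control libraries. The 4 groups did not overlap, in the order both, FK228, YF, control from low to high. Pparg fell with FK228 (-1.17 ± 0.20; adjusted p = 2.25e-05, edgeR), with YF (-0.60 ± 0.19; adjusted p = 0.0167, edgeR) and most with both (-2.10 ± 0.22; adjusted p = 1.57e-08, edgeR), a 4.3-fold drop. The YF call was lost without YF replicate 2 (-0.55; adjusted p = 0.0596, edgeR), YF replicate 3 (-0.54; adjusted p = 0.0731, edgeR) or control replicate 2 (-0.50; adjusted p = 0.0876, edgeR). With both, Pparg held 17 to 26 counts per library. An antisense gene, Gm44079, overlaps Pparg, and the sources used here do not say whether counting used strand.

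Ppard made up most of the PPAR transcripts in every group. Its share of the summed PPAR TPM was 88.2% ± 1.48 in FK228 cells, 84.7% ± 1.36 in YF cells and 93.2% ± 0.273 with both, against 77.8% ± 4.76 in control cells (SD, n = 3 each). The Pparg share was 7.3% ± 1.13, 13.2% ± 1.28 and 2.91% ± 0.758 in those treated groups, against 19.9% ± 4.1 in control cells. No library overlapped between the treated groups and control in the Pparg share, where Pparg was lower. Of the adipocyte markers, Adipoq and Plin1 were under 0.2 TPM in every group, and Fabp4 was at 5.51 TPM in FK228 cells, 13.4 in YF cells and 25.7 with both, against 0.21 in control cells. Their part in the Pparg result was not tested.

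**Figure D2:**
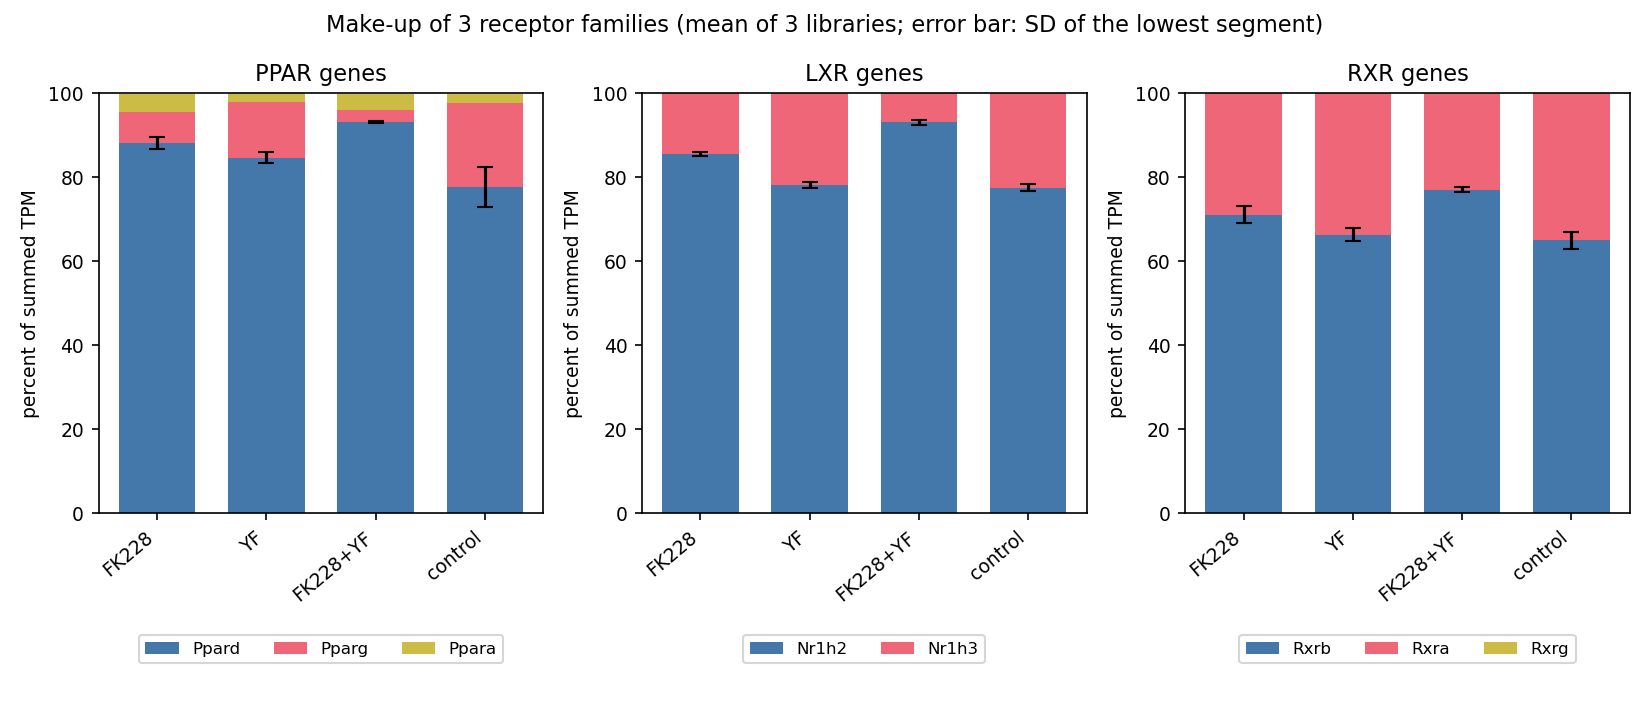
Percent of the summed TPM of each receptor family held by each gene (bars start at 0; mean of 3 libraries per group, with error bars for the SD of the lowest segment). With both treatments Ppard holds 93.2% of PPAR transcripts and Nr1h3 6.89% of LXR transcripts. Rxrb and Rxrg were added to the RXR panel after their values were seen.

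The LXR genes parted. Nr1h3 (LXR alpha, the LXR that liver, fat and macrophages make most) fell with FK228 and further with both, while Nr1h2 (LXR beta, made in most tissues) moved little. Nr1h3 had 19.9, 18.7 and 19.8 CPM in FK228 libraries, 35.4, 31.5 and 36.8 in YF libraries and 11.3, 10.6 and 9.44 with both, against 35.7, 40.2 and 38.5 in control libraries. Libraries with both treatments were all below those with FK228, and these all below YF and control, which overlapped. Nr1h3 fell 1.96-fold with FK228 (-0.97 ± 0.08; adjusted p = 9.94e-10, edgeR) and 3.65-fold with both (-1.87 ± 0.09; adjusted p = 2.97e-14, edgeR). With YF alone it gave -0.14 ± 0.08 (adjusted p = 0.166, edgeR). The summed TPM of 6 macrophage and leukocyte markers was 36.2 to 42.8 in FK228 libraries, 85.6 to 109 in YF libraries and 57.2 to 66.9 with both, against 108 to 144 in control libraries, and only Cd14 and Cd68 reached 1 TPM. Cd14 was lower in FK228-treated groups and Cd68 higher, and Adgre1 and Clec4f were under 0.1 TPM. Their part in the Nr1h3 result was not tested. An annotated noncoding transcript on the same strand, Gm13783, overlaps Nr1h3 and could share its reads.

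Nr1h2 had 147, 136 and 137 CPM in FK228 libraries, 157, 143 and 155 in YF libraries and 174, 166 and 167 with both, against 143, 165 and 169 in control libraries. FK228 and control overlapped, and the fall with FK228 was small (-0.18 ± 0.06; adjusted p = 0.0144, edgeR). That call was lost without FK228 replicate 2 (-0.15; adjusted p = 0.0939, edgeR), control replicate 2 (-0.15; adjusted p = 0.057, edgeR) or control replicate 3 (-0.14; adjusted p = 0.0884, edgeR). Nr1h2 was higher with both than with FK228 alone (0.27 ± 0.06; adjusted p = 0.00118, edgeR). Against YF alone the combination gave 0.16 ± 0.06 (adjusted p = 0.0325, edgeR), a call lost without FK228+YF replicate 1 or 3 or YF replicate 2 (0.12 to 0.16), with no count filter (0.14) and with library totals in place of TMM scaling (0.11). As a share of LXR transcripts, Nr1h3 stood at 14.4% ± 0.49 in FK228 cells, 21.7% ± 0.706 in YF cells and 6.89% ± 0.5 with both, against 22.4% ± 0.829 in control cells (SD, n = 3 each).

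The bile acid receptor gene Nr1h4 fell in every treated group. It had 32.9, 34.8 and 34.4 CPM in FK228 libraries, 46.4, 46.9 and 50.3 in YF libraries and 22.5, 18.2 and 20.9 with both, against 54.1, 59.7 and 55.4 in control libraries. The 4 groups did not overlap. The fall was 1.66-fold with FK228 (-0.73 ± 0.07; adjusted p = 1.37e-08, edgeR), 1.18-fold with YF (-0.24 ± 0.07; adjusted p = 0.0127, edgeR) and 2.75-fold with both (-1.46 ± 0.08; adjusted p = 1.78e-13, edgeR). The YF call was lost without YF replicate 1 (-0.22; adjusted p = 0.053, edgeR) or control replicate 2 (-0.20; adjusted p = 0.0686, edgeR), and with library totals (-0.18; adjusted p = 0.0594, edgeR).

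Nr0b2, the repressor gene that FXR switches on in liver, was barely detected. Its counts were 0, 0 and 0 in FK228 libraries, 2, 6 and 3 in YF libraries and 0, 2 and 1 with both, against 1, 4 and 1 in control libraries. Summed over a group, Nr0b2 had 0 counts with FK228, 6 in control and 11 in YF cells. With FK228 set at a floor of 3 counts, it was 1.89-fold lower than control and 3.46-fold lower than YF. These values take the 6 and 11 counts as exact, so they are not lower bounds. The ratio of YF to control counts was 1.83, with a 95% interval of 0.619 to 6.01, which covers counting error only. Without the count filter, Nr0b2 gave an adjusted p of 0.0127 (edgeR) in FK228 versus YF and 0.0529 in FK228 versus control.

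Rxra encodes 1 of the RXR partners of the receptors above. It had 28.9, 33.7 and 35.1 CPM in FK228 libraries and 42.8, 36.5 and 37.6 in YF libraries. With both it had 20.8, 21.5 and 21.5, against 41.9, 48.1 and 46.0 in control libraries. The libraries with both treatments were below all others, FK228 was below YF and control, and YF overlapped with control. Rxra fell with FK228 (-0.48 ± 0.08; adjusted p = 2.13e-05, edgeR) and 2.13-fold with both (-1.09 ± 0.08; adjusted p = 1.07e-10, edgeR). The fall with YF (-0.22 ± 0.08; adjusted p = 0.037, edgeR) was lost without YF replicate 2 (-0.18), YF replicate 3 (-0.20), control replicate 2 (-0.18) or control replicate 3 (-0.21), and with library totals (-0.17). Rxrb, which encodes another RXR, had 39.1 ± 0.293 CPM in FK228 cells, 37.4 ± 1.1 in YF cells and 35.1 ± 1.38 with both, against 41.9 ± 3.35 in control cells (SD, n = 3 each). It fell with both treatments (-0.26 ± 0.07; adjusted p = 0.00155, edgeR). Rxrg had at most 1 count in any library. Rxrb made up most of the summed RXR TPM in every group. Its share was 71.2% in FK228 cells, 66.4% in YF cells and 77.1% with both, against 65% in control cells. The sum was 26.2 ± 2.8 TPM in FK228 cells, 30 ± 2 in YF cells and 22.4 ± 0.947 with both, against 32 ± 1.25. The Rxra share of RXR transcripts was 28.8% ± 2.02 in FK228 cells, 33.6% ± 1.45 in YF cells and 22.8% ± 0.528 with both, against 35% ± 2.1 in control cells.

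Esrra, which encodes ERR alpha, a receptor that works with PGC-1 on mitochondrial genes, did not differ beyond its spread. It had 89.7, 78.7 and 86.3 CPM in FK228 libraries, 88.0, 82.7 and 86.3 in YF libraries and 84.0, 85.5 and 79.2 with both, against 81.1, 80.2 and 90.5 in control libraries. All groups overlapped. The 95% interval of its log2 fold change was -0.11 to 0.15 for FK228, -0.10 to 0.16 for YF and -0.15 to 0.11 for both, against control. The coding gene Trmt112 overlaps Esrra on the opposite strand.

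Ppargc1a, which encodes the fasting-induced coactivator PGC-1 alpha, had 12.7, 13.9 and 15.1 CPM in FK228 libraries, 9.92, 9.23 and 9.90 in YF libraries and 11, 13 and 13.3 with both, against 9.80, 9.56 and 9.45 in control libraries. Both FK228-treated groups were above control and YF without overlap, and they overlapped with each other. Ppargc1a rose with FK228 (0.53 ± 0.10; adjusted p = 9.48e-05, edgeR) and with both (0.37 ± 0.10; adjusted p = 0.00251, edgeR). With YF alone it gave 0.01 ± 0.10 (adjusted p = 0.946, edgeR). The annotated genes Gm42614, Gm42615 and Gm43605 overlap Ppargc1a on the same strand, and Gm42613 on the opposite strand. They could share its reads.

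Counted over the 9 tested genes, FK228 versus control had 3 higher (Ppara, Ppard, Ppargc1a) and 5 lower (Pparg, Nr1h3, Nr1h4, Rxra, Nr1h2), where 33.2% of all tested genes were called higher and 35.5% lower. YF versus control had 0 higher, also at an unadjusted p under 0.05 and with DESeq2, and 3 lower (Pparg, Nr1h4, Rxra), where 18% and 14.6% of all genes were called. The 3 fell to 1 with library totals, to 1 without YF replicate 2 or YF replicate 3, and to 0 without control replicate 2. The combination had 3 higher (Ppara, Ppard, Ppargc1a) and 4 lower (Pparg, Nr1h3, Nr1h4, Rxra), where 38.8% and 38.6% of all genes were called. In either direction 8 of the 9 genes were called with FK228, 3 with YF and 7 with both, and the shares with YF and with both are near the background of 32.6% and 77.4%. Libraries did not overlap with control for 7 of the 9 genes with FK228, 2 with YF and 7 with both, where 69.6%, 44% and 78.7% of all tested genes did not. The median log2 fold change of the 9 genes was -0.18 with FK228, -0.07 with YF and -0.02 with both, against -0.02, 0.01 and 0.01 over all tested genes. With RLE scaling the median with both was above 0, at 0.0021.

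**Figure D3:**
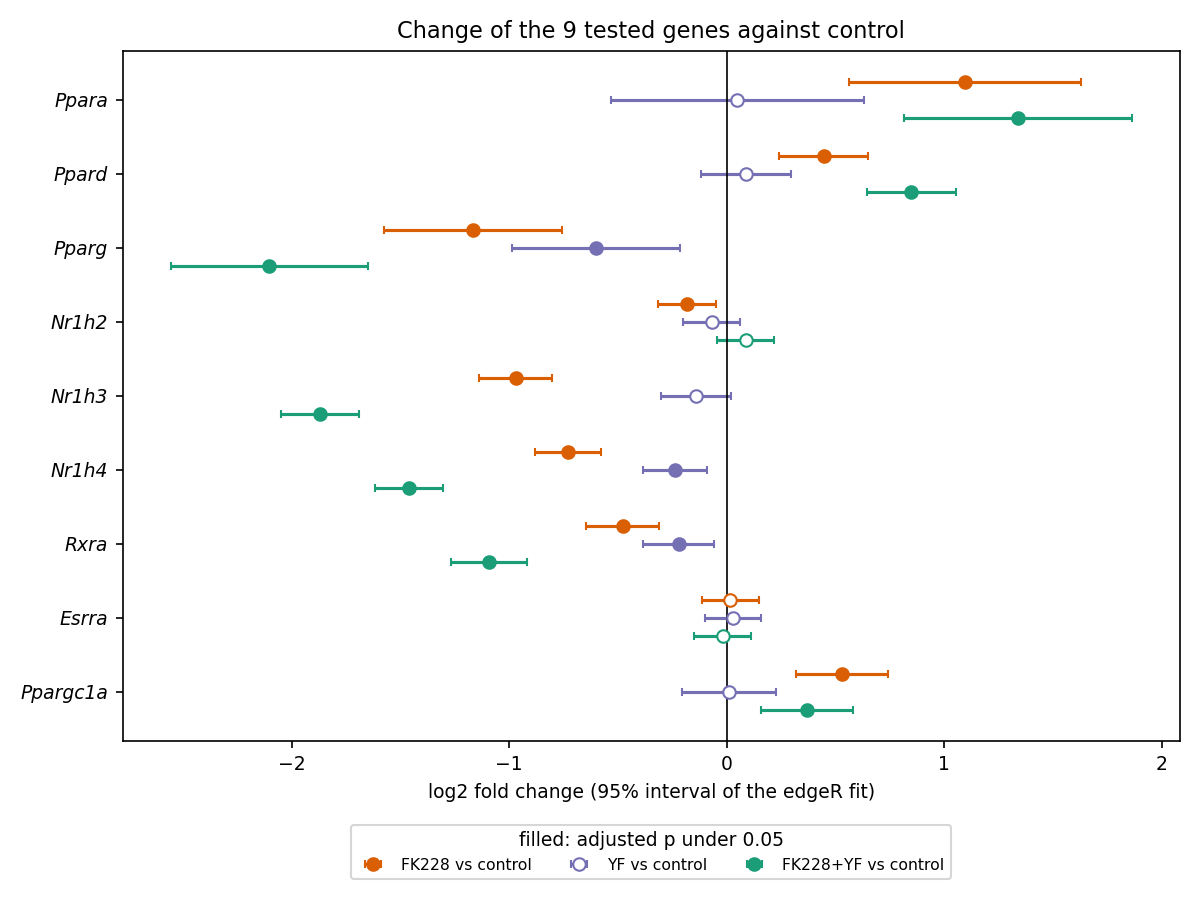
Log2 fold change against control of the 9 tested genes, with 95% intervals from edgeR. Filled points have an adjusted p under 0.05. Nr1h3, Nr1h4, Rxra and Pparg lie furthest below 0 with both treatments, Ppara and Ppard furthest above, and the YF points lie nearer to 0 than the combination for all of these.

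Set directly against each other, FK228 and YF differed in 7 of the 9 genes, where 61.2% of all tested genes were called, 27.8% higher and 33.3% lower. Their libraries did not overlap in those 7 genes, as in 66.8% of all tested genes. In FK228 versus YF, Ppara (1.05 ± 0.25; adjusted p = 0.0013, edgeR), Ppard (0.36 ± 0.10; adjusted p = 0.0039, edgeR) and Ppargc1a (0.52 ± 0.10; adjusted p = 0.000157, edgeR) were higher. Nr1h3 was lower (-0.83 ± 0.08; adjusted p = 1.93e-08, edgeR), as was Nr1h4 (-0.49 ± 0.07; adjusted p = 5.93e-06, edgeR). Rxra (-0.26 ± 0.08; adjusted p = 0.00888, edgeR) and Pparg (-0.57 ± 0.20; adjusted p = 0.021, edgeR) were lower too. Of the 4 lower genes, 2 were left without FK228 replicate 1 or YF replicate 1, when Rxra stood at -0.15 and -0.19 and Pparg at -0.45 in each. Pparg also lost its call without FK228 replicate 2 (-0.54; adjusted p = 0.059, edgeR) and with DESeq2 (-0.53; adjusted p = 0.0501). Nr1h2 became a lower gene with library totals (-0.22; adjusted p = 0.00477, edgeR), a scaling that moved the median of all tested genes to -0.14 in this comparison.

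Adding YF to FK228 took the same 4 genes further down: in FK228+YF versus FK228, Nr1h3 fell by 0.90, Pparg by 0.94, Nr1h4 by 0.73 and Rxra by 0.61 on the log2 scale. The adjusted p was 5.39e-08 for Nr1h3, 0.00266 for Pparg, 1.12e-07 for Nr1h4 and 3.69e-06 for Rxra (edgeR). Ppard and Nr1h2 were higher, so 6 of the 9 genes were called, where 52.9% of all tested genes were. Libraries did not overlap in those 6, as in 60.1% of all tested genes. In FK228+YF versus YF, 4 were higher (Ppara, Ppard, Nr1h2, Ppargc1a) and 4 lower (Pparg, Nr1h3, Nr1h4, Rxra), where 34.7% and 35.9% of all genes were called, 70.6% in either direction. Libraries did not overlap in those 8 genes, as in 75.3% of all tested genes. Nr1h3 fell 3.31-fold there (-1.73 ± 0.09; adjusted p = 2.45e-13, edgeR).

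The interaction asks whether the FK228 effect in cells with YF (FK228+YF versus YF) differs from that in cells without (FK228 versus control). It was called for 4 of the 9 genes, where 26.5% of all tested genes were called. The fall of Nr1h3 was larger with YF by a log2 difference of -0.76 ± 0.12 (adjusted p = 8.48e-05, edgeR), that of Nr1h4 by -0.49 ± 0.10 (adjusted p = 0.00149, edgeR) and that of Rxra by -0.39 ± 0.12 (adjusted p = 0.0155, edgeR). Put another way, in each of these 3 receptor genes the log2 fall with both treatments was larger than the single falls summed. Nr1h2 went the other way, at 0.34 ± 0.09 (adjusted p = 0.00786, edgeR): its FK228 effect was 0.16 with YF and -0.18 without. Rxra missed the threshold without YF replicate 1 (-0.32; adjusted p = 0.0531, edgeR). Hdac1 RNA was at 402 ± 18.9 CPM with YF and 798 ± 2.16 with both, so the groups with YF were not alike in it. The part of that difference in the interaction was not tested.

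For Ppard the interaction was 0.31 ± 0.14 (adjusted p = 0.102, edgeR), and it passed the threshold without control replicate 2 (0.41; adjusted p = 0.0295, edgeR). Its 95% interval with all libraries was 0.03 to 0.60. The intervals for Ppara (-0.56 to 0.95), Pparg (-0.97 to 0.30), Esrra (-0.25 to 0.12) and Ppargc1a (-0.47 to 0.13) all held 0. For Ppara and Pparg these intervals are wide, so a difference as large as that of Nr1h4 could not be told from none.

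**Figure D4:**
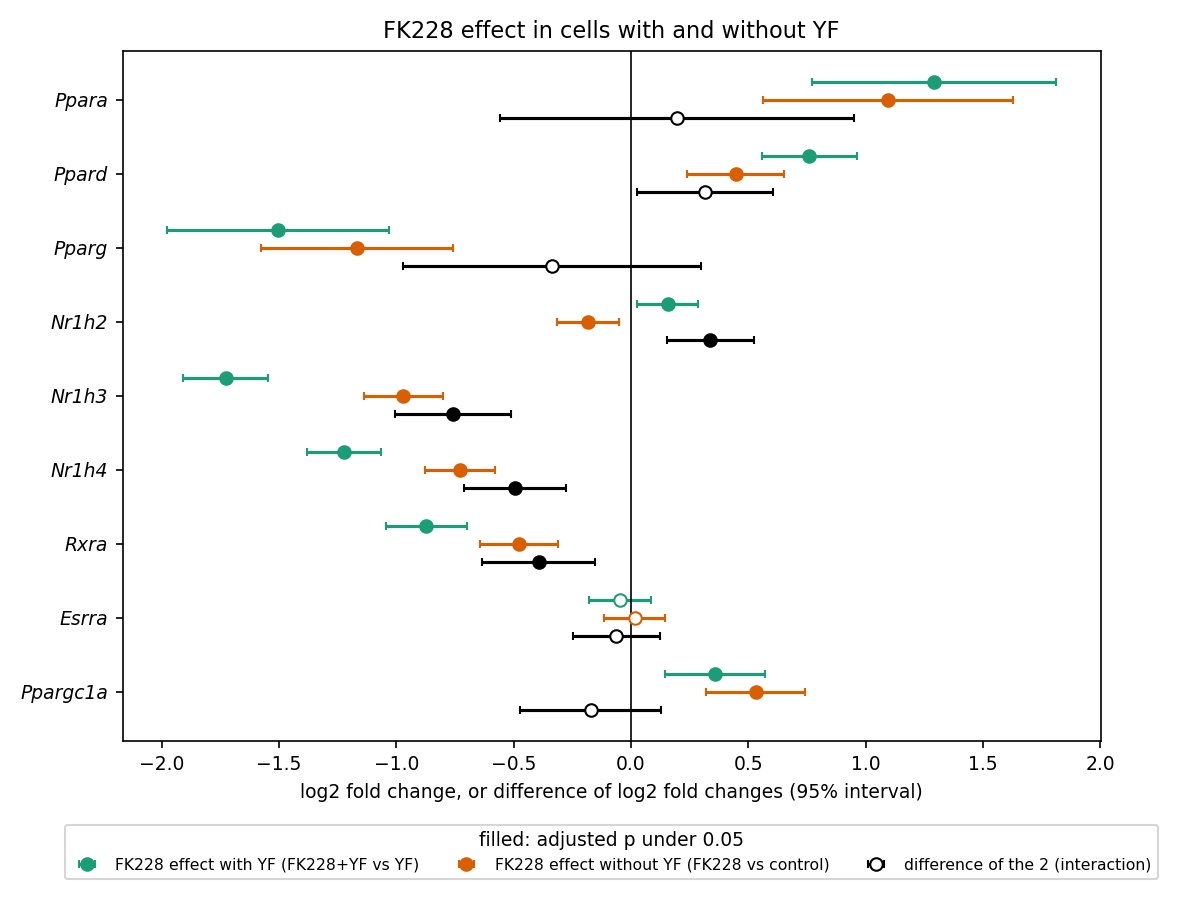
FK228 effect with YF (FK228+YF versus YF), FK228 effect without YF (FK228 versus control) and their difference, for the 9 tested genes, as log2 fold changes with 95% intervals; filled points have an adjusted p under 0.05. The differences of Nr1h3, Nr1h4 and Rxra lie below 0 and that of Nr1h2 above 0.

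For each tested gene, the 2 genes most alike over the 12 libraries were found by Pearson's r of log2 CPM. The libraries form 4 groups that differ in many genes, so r largely describes the group means and carries no test. Denn2b (0.995) and Serpinb6b (0.995) were most like Nr1h3, Cpped1 (0.996) and Birc3 (0.995) most like Nr1h4, and Arid1b (0.991) and Ralb (0.99) most like Rxra. Rsf1 (0.988) and Tinag (0.987) were most like Pparg, Agpat1 (0.974) and Plekhm1 (0.969) most like Ppard, and Grb14 (0.97) and Siae (0.966) most like Ppara. Mtmr4 (0.981) and Igsf9 (0.967) were most like Ppargc1a, and Tmub2 (0.942) and Xpnpep1 (0.936) most like Nr1h2. For Esrra the closest were Git1 (0.694) and Tssc4 (0.687).

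Genes on the same pathways were counted from 7 lists. Some of their genes were near 0 in control cells and were tested only because a treated group expressed them, so they had to come out higher and the balance of a list is a description only. Over all tested genes 33.2% were higher and 35.5% lower with FK228, 18% and 14.6% with YF, 38.8% and 38.6% with both, and 11.1% and 15.3% in the interaction. A gene called lower in the interaction need not have fallen. It may have risen in each group, by less with both than the single log2 rises summed. Of 39 other nuclear receptor genes, 28 were tested. With FK228, 8 (28.6%) were higher and 11 (39.3%) lower, near the 33.2% and 35.5% of all genes. With YF, 4 (14.3%) were higher and 10 (35.7%) lower, where 18% and 14.6% of all genes were, and with both, 8 (28.6%) and 14 (50%), where 38.8% and 38.6% were. The medians were -0.07, -0.17 and -0.44. Hnf4a, a master regulator of hepatocyte genes, had 50.6 ± 3.32 CPM in FK228 cells, 121 ± 5.81 in YF cells and 28.7 ± 1.24 with both, against 177 ± 7.51 in control cells (SD, n = 3 each). Hnf4a thus fell in the same order of groups as Nr1h4, by -1.81 ± 0.06 with FK228 and -2.63 ± 0.07 with both (adjusted p = 1.04e-15 and 2.1e-18, edgeR). Most of the tested hepatocyte markers, which are given above and include Hnf4a itself, were also lower in the FK228-treated groups. Of the cholangiocyte markers, Krt19 was at 172 TPM in FK228 cells, 316 in YF cells and 108 with both, against 667 in control cells. Krt7 was at 60.6, 54.8 and 27.1 TPM in those treated groups, against 78.0 in control cells. Sox9 was at 3.71, 5.26 and 3.35 TPM, against 6.15. Spp1 was at 4664, 5021 and 4195 TPM, against 3892. The 4 markers summed to 4375 to 5486, 5236 to 5649 and 3955 to 4544 TPM, against 4473 to 4731, and most of this was Spp1. Of these 4 markers, 1 was called higher and 3 lower with FK228, and likewise with YF. With both, 0 were higher (1 with DESeq2) and 3 lower. The part of such shifts in the receptor results was not tested.

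Vdr, the vitamin D receptor gene, rose with FK228 (1.11 ± 0.12; adjusted p = 7e-08, edgeR), with YF (1.22 ± 0.12; adjusted p = 1.43e-07, edgeR) and with both (2.43 ± 0.11; adjusted p = 4.14e-14, edgeR). Rora, an orphan receptor of the circadian clock, rose with FK228 (1.72 ± 0.21; adjusted p = 2.73e-07, edgeR), with YF (0.63 ± 0.23; adjusted p = 0.037, edgeR) and with both (2.00 ± 0.20; adjusted p = 1.2e-08, edgeR). Nr2f2, the orphan receptor gene of COUP-TFII, fell to 6.91 ± 0.999 CPM with FK228, 12.1 ± 0.114 with YF and 5.2 ± 0.73 with both, against 18.5 ± 2.08 in control cells. Nr1i2, the xenobiotic receptor PXR, was lower in all 3 treated groups, at 2.67 ± 0.288 CPM with FK228, 2.43 ± 0.325 with YF and 2.27 ± 0.331 with both, against 4.19 ± 0.292 in control cells. Rara, a retinoic acid receptor, had 23.7 ± 1.98 CPM in FK228 cells, 26.8 ± 1.94 in YF cells and 17.2 ± 0.574 with both, against 42.5 ± 7.38 in control cells, and was also called lower in each. Within these receptors the interaction was called lower for 4 (14.3%, where 15.3% of all genes were) and higher for 1 (3.57%, where 11.1% were), Rorb (0.58 ± 0.20; adjusted p = 0.038, edgeR). The number called higher was 0 to 3 over the libraries left out. Rarb (-0.71) and Nr1d2 (-0.61) were the lower ones with the largest differences.

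Of 23 coactivator and corepressor genes, 22 were tested. With FK228, 2 (9.09%) were higher and 10 (45.5%) lower, where 33.2% and 35.5% of all genes were. With YF, 1 (4.55%) was higher and 5 (22.7%) lower, where 18% and 14.6% were, and with both, 6 (27.3%) and 11 (50%), where 38.8% and 38.6% were. The medians were -0.13, -0.02 and -0.21. With library totals the median with YF was above 0 (0.04), and 3 genes were higher and 3 lower. Sirt1, a deacetylase that activates PGC-1 alpha, had 4.32 ± 0.298 CPM in FK228 cells, 9.34 ± 0.771 in YF cells and 6.43 ± 0.781 with both, against 10.7 ± 1.42 in control cells. It fell with FK228 (-1.31 ± 0.13; adjusted p = 1.79e-08, edgeR) and less so in YF cells, with an interaction of 0.77 ± 0.18 (adjusted p = 0.00381, edgeR). The acetyltransferase gene Crebbp fell with FK228 (-1.18 ± 0.15), YF (-0.74 ± 0.14) and both (-1.44 ± 0.15). Kat2a, another one, fell with FK228 (-0.88 ± 0.06) and both (-1.06 ± 0.06). Tbl1xr1, a subunit of the NCoR corepressor complex, fell with FK228 (-0.48 ± 0.12), YF (-0.96 ± 0.12) and both (-1.20 ± 0.12). Lcor, a corepressor gene, fell with YF (-0.29 ± 0.07; adjusted p = 0.00213, edgeR) and gave 0.12 with FK228 and -0.14 with both. The interaction was called higher for 5 coregulator genes (22.7%, where 11.1% of all genes were), among them the corepressor subunit gene Gps2 (0.52), and lower for 5 (15.3% of all genes), among them the corepressor gene Nrip1 (-0.45).

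Of 38 PPAR target genes, 30 were tested. With FK228, 15 (50%) were higher and 7 (23.3%) lower, where 33.2% and 35.5% of all genes were. With YF, 8 (26.7%) were higher and 4 (13.3%) lower, where 18% and 14.6% were, and with both, 14 (46.7%) and 8 (26.7%), where 38.8% and 38.6% were. The medians were 0.18, 0.09 and 0.14. The members with the largest changes were at or near 0 in control cells, so ratios of summed counts are given. Cd36, a fatty acid uptake receptor, was 280 times the control with FK228 (95% interval 109 to 1030), 39.1 times with YF (15 to 145) and 335 times with both (131 to 1233). Fabp4, a fatty acid carrier of adipocytes and macrophages, was 28.3 times the control with FK228 (13.5 to 71.5), 60 times with YF (28.9 to 150) and 126 times with both (60.6 to 313). Creb3l3, a liver transcription factor gene, was 35.1 times the control with FK228 (20.7 to 64.8), 10 times with YF (5.78 to 18.8) and 40.9 times with both (24.1 to 75.3). Fabp4 was also the 1 adipocyte marker at 1 TPM or more. The summed TPM of the 4 adipocyte markers measured was 4.11 to 6.88 in FK228 libraries, 13.4 to 13.8 in YF libraries and 24.2 to 27.5 with both, against 0.09 to 0.32 in control libraries. In the interaction 4 PPAR targets (13.3%) were higher and 8 (26.7%) lower, where 11.1% and 15.3% of all genes were. The lower ones included Cd36, Fabp4 and Creb3l3, whose values rest on few control counts and are not given.

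Of 19 LXR target genes, 14 were tested. With FK228, 8 (57.1%) were higher and 3 (21.4%) lower, where 33.2% and 35.5% of all genes were. With YF, 3 (21.4%) were higher and 3 lower, where 18% and 14.6% were, and with both, 7 (50%) and 6 (42.9%), where 38.8% and 38.6% were. With 1 library left out the counts with both were 6 to 7 higher and 5 to 7 lower. The medians were 0.30, -0.02 and 0.07. The YF median was above 0 with library totals (0.03). Lpl, which encodes lipoprotein lipase, had 7.64 ± 0.378 CPM in FK228 cells, 4.65 ± 0.273 in YF cells and 8.97 ± 0.11 with both, against 1.55 ± 0.425 in control cells, and rose in each group. Abca1, the cholesterol efflux pump, rose with FK228 (0.95 ± 0.29; adjusted p = 0.00653, edgeR), with YF (1.67 ± 0.27; adjusted p = 6.78e-05, edgeR) and with both (2.66 ± 0.25; adjusted p = 3.86e-09, edgeR). Scd1, a fatty acid desaturase, rose with FK228 (1.63 ± 0.09; adjusted p = 1.24e-12, edgeR) and both (1.31 ± 0.09) and fell with YF (-0.38 ± 0.09). Its relative Scd2 rose with FK228 (0.24 ± 0.07) and fell with YF (-0.52 ± 0.07; adjusted p = 1.56e-05, edgeR) and both (-0.17 ± 0.07). Smpdl3a fell with FK228 (-1.48 ± 0.17) and with both (-2.19 ± 0.19). The interaction was called lower for 4 LXR targets (28.6%, where 15.3% of all genes were), among them Lpl (-1.35), Arl4c (-0.95) and Rnf145 (-0.57), and higher for 0, also at an unadjusted p under 0.05 and with DESeq2.

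Of 20 FXR target and bile acid genes, 11 were tested. With FK228, 7 (63.6%) were higher and 4 (36.4%) lower, where 33.2% and 35.5% of all genes were. With YF, 5 (45.5%) were higher and 2 (18.2%) lower, where 18% and 14.6% were, and with both, 6 (54.5%) and 5 (45.5%), where 38.8% and 38.6% were. With 1 library left out the counts with both were 5 to 6 higher and 5 lower. The medians were 0.81, -0.06 and 0.54. Fgfr4, the receptor for the bile acid hormone FGF15, had 17.2 ± 1.47 CPM in FK228 cells, 37.6 ± 2.29 in YF cells and 12 ± 0.442 with both, against 53.6 ± 4.34 in control cells, and fell with FK228 (-1.64 ± 0.08; adjusted p = 2.29e-13, edgeR). Fgfr4 also fell with both (-2.16 ± 0.08). Its coreceptor gene Klb rose with FK228 (1.34 ± 0.14), YF (0.81 ± 0.15) and both (1.18 ± 0.15). Apoc2, an activator of lipoprotein lipase, fell to 9.37 ± 1.04 CPM in FK228 cells and 4.71 ± 1.41 with both, and was at 35.7 ± 7.81 in YF cells, against 47 ± 5.5 in control cells. Cyp27a1, a sterol hydroxylase, rose with FK228 (0.81 ± 0.08), YF (0.51 ± 0.09) and both (0.95 ± 0.08). Fetub rested on 3 control counts, and its ratio was 31 (10.3 to 153) with FK228, 11 (3.44 to 55.8) with YF and 69.7 (23.5 to 341) with both. The interaction was called lower for 6 (54.5%, where 15.3% of all genes were), among them Klb (-0.97) and the bile acid exporter gene Abcc3 (-0.71), and higher for 0, also at an unadjusted p under 0.05 and with DESeq2. Fetub is another of the 6, and its value rests on the 3 control counts and is not given. Klb and Fetub rose in every treated group, whereas Abcc3 fell with FK228 (-0.59), YF (-0.38) and both (-1.68). The 6 calls are thus not a shared fall.

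Of 25 ERR and PGC-1 target genes, 20 were tested. With FK228, 11 (55%) were higher and 4 (20%) lower, where 33.2% and 35.5% of all genes were. With YF, 4 (20%) were higher, near the 18% of all genes, and 1 (5%) lower, where 14.6% were. With both, 11 (55%) and 3 (15%) were, where 38.8% and 38.6% were. The medians were 0.21, 0.06 and 0.38. Perm1, a muscle regulator of mitochondrial genes, had 2.32 ± 0.11 CPM in FK228 cells, 1.34 ± 0.0343 in YF cells and 2.64 ± 0.267 with both, against 0.8 ± 0.0577 in control cells, and rose in each group. Cox6a1, a subunit of cytochrome oxidase, rose with FK228 (0.67 ± 0.10; adjusted p = 6.83e-06, edgeR) and with both (1.00 ± 0.10; adjusted p = 2.25e-08, edgeR). Cs, citrate synthase, rose with FK228 (0.61 ± 0.05), YF (0.16 ± 0.05; adjusted p = 0.0229, edgeR) and both (0.61 ± 0.05). Cycs, cytochrome c, and Idh3a, a citric acid cycle enzyme, rose with YF by 0.36 ± 0.10 and 0.18 ± 0.06 (adjusted p = 0.0112 and 0.0213, edgeR) and with both by 0.72 ± 0.10 and 0.46 ± 0.06, and gave 0.22 and 0.01 with FK228. Nrf1, a factor for respiratory genes, fell with FK228 (-0.49 ± 0.08) and with both (-0.93 ± 0.08; adjusted p = 9.69e-10, edgeR). In the interaction 3 (15%) were higher and 2 (10%) lower, where 11.1% and 15.3% of all genes were. These counts were 2 to 5 and 1 to 3 over the libraries left out, with 5 higher without FK228 replicate 1, and the lower count was 1 with library totals and with the replicate block. There Tfb2m, a mitochondrial transcription factor, was higher (0.56 ± 0.09) and Vegfa, an angiogenic factor, lower (-0.40 ± 0.11). The 4 higher calls with YF became 1 without YF replicate 2 or control replicate 2, and the 4 lower calls with FK228 became 2 without FK228 replicate 2 or FK228 replicate 3 and with RLE scaling.

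Of 22 genes that carry or make receptor ligands, 17 were tested. With FK228, 9 (52.9%) were higher and 3 (17.6%) lower, where 33.2% and 35.5% of all genes were. With YF, 10 (58.8%) were higher and 1 (5.88%) lower, where 18% and 14.6% were, and with both, 12 (70.6%) and 3 (17.6%), where 38.8% and 38.6% were. The medians were 0.81, 0.44 and 0.95. Fabp4 is also on this list, as is Cyp27a1 of the FXR list. The change of Cyp27a1 is itself the median here with FK228 and with both, and the FXR median with FK228. The lists are thus not independent. Ch25h, which makes the LXR ligand 25-hydroxycholesterol, had 14.9 ± 1.35 CPM in FK228 cells, 3.56 ± 0.0733 in YF cells and 9.89 ± 0.544 with both, against 2.21 ± 0.383 in control cells. Its rise with FK228 was 2.76 ± 0.13 (adjusted p = 1.45e-13, edgeR), and the interaction was -1.28 ± 0.19 (adjusted p = 4.33e-05, edgeR). Cyp46a1, which makes another oxysterol, rose with FK228 (2.51 ± 0.20; adjusted p = 5.99e-10, edgeR), with YF (2.2 ± 0.21; adjusted p = 7.22e-08, edgeR) and with both (4.45 ± 0.18; adjusted p = 2.49e-15, edgeR). In the interaction 7 ligand genes (41.2%, where 15.3% of all genes were) were lower and 0 higher, also 0 at an unadjusted p under 0.05 and with DESeq2. Among these 7, Fabp4, Ch25h and Ptgs2 rose in every treated group. Their negative values mean that the log2 rise with both was below the single rises summed. Fabp4 had 7 summed control counts, so its value rests on a baseline near 0. Ptgs2, a prostaglandin synthase, rose to 57.5 ± 2.54 CPM in FK228 cells, 59.9 ± 2.02 in YF cells and 98.7 ± 10.5 with both, against 15.1 ± 1.81 in control cells.

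The small counts of the 7 lists in YF versus control moved with single libraries. Coregulator genes called lower were 3 without YF replicate 1 or YF replicate 3, PPAR targets called lower were 2 without YF replicate 3, and the 1 called lower among ERR targets and among ligand genes was 0 to 2 over the libraries left out. With FK228, coregulator genes called higher were 4 without FK228 replicate 1, and also 4 with DESeq2 and with RLE scaling of all libraries. In the interaction, coregulator genes called higher ranged from 2 to 7 and lower from 2 to 6, and ligand genes called lower from 4 to 8 over the libraries left out.

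**Figure D5:**
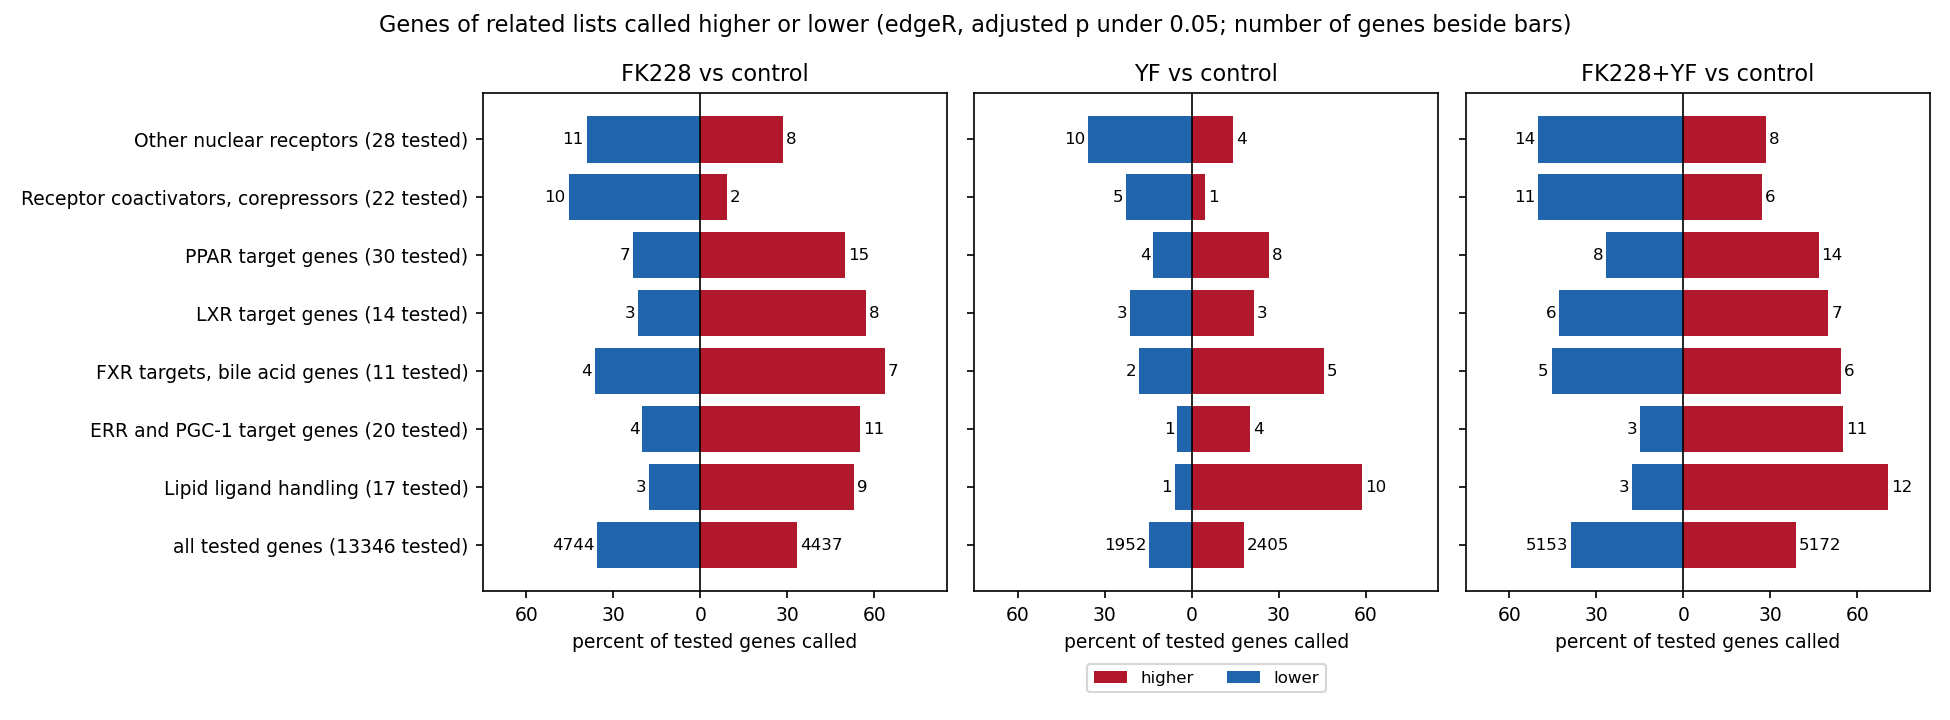
Percent of the tested genes of each list called higher (right) or lower (left) against control, with the number of genes beside each bar and all 13346 tested genes at the bottom. With both, the LXR bars (7 and 6) and FXR bars (6 and 5) are nearly equal. Genes near 0 in control add to the higher side, so the balance of a bar is a description only.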

How the data were processed

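TRIzol RNA was sequenced with paired ends on BGISEQ, per the labels' protocols. Each expected count is an estimated count per gene made by the authors, deposited unscaled per the file headers, and 16.6% of the values are not whole. The authors also deposited TPM and FPKM per library, per the file headers. RSEM 1.2.12, Bowtie2 2.2.5, HISAT2 2.0.4, the genome GRCm38.p6 and DESeq2 1.4.5 are listed in the submitters' processing notes, with no role. No source used here states the use of strand. Another 28 columns were not used.

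Counts were rounded, filtered with filterByExpr and scaled by TMM. edgeR 4.0.16 (limma 3.58.1, R 4.3.3) fitted a robust quasi-likelihood model to all 12 libraries with 1 term per group, and p-values were adjusted by Benjamini-Hochberg over 13346 genes. SEs follow from the F statistic. CPM carry TMM factors. TPM are as deposited. Depth was 23664446 to 26122998 counts. Ratios of genes with 30 or fewer summed counts in a group have 95% exact binomial intervals, which cover counting error only.

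The members, lists and tests were chosen with earlier results of these data known. Named were the 10 members, the 2 genes most alike to each (mean CPM of 5 or more), and up to 3 called genes per list with the largest changes in each comparison with control and the interaction (mean CPM of 1 or more). Rxrb, Rxrg, the class I HDAC genes, Krt19, Krt7, Sox9 and Spp1 were named after their values were seen. Alternatives were RLE scaling, library totals, no count filter, DESeq2 1.42.0, a replicate block, each library left out in turn, and FPKM for TPM. The scripts were tested on simulated counts in which a small part of the genes changed, with FK228 only. That does not test the scaling where most genes change, or the interaction. Replicate libraries differed by 3.58 to 21.6 chi-square units per gene, so none was deposited 2 times.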

Additional observations from a re-analysis of the deposited data

Results flagged for a closer look

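The FK228 effect differed between cells with and without YF for 4 of the 9 tested genes, by the interaction test of edgeR adjusted over 13346 genes. The same test called 26.5% of all tested genes, 11.1% higher and 15.3% lower. For Nr1h3, the LXR alpha gene, the effect with YF minus that without was -0.757 on the log2 scale, and every library with both treatments was lower than every FK228 library. For Nr1h4, the FXR gene, it was -0.493, and for Rxra it was -0.394, a call lost without YF replicate 1. For Nr1h2, the LXR beta gene, it was 0.338: its FK228 effect was 0.16 in YF cells and -0.18 in cells without YF, both calls that single libraries decide. Groups of 3 libraries were too small to test for a library that stands apart.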

How the results depend on the processing

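Of the log2 fold changes of the 9 tested genes recomputed under the alternatives, 1015 kept their direction and side of the threshold, 27 lost a call, 2 gained one and 27 changed sign. The sign changes were all of values that were not called. Ppargc1a in YF versus control became -0.000369 with DESeq2 and -0.000358 with RLE scaling. Esrra in FK228+YF versus control became 0.00214 with DESeq2 and 0.00213 with RLE scaling, and in FK228 versus YF 0.030 with both and 0.00735 without the count filter. With library totals, Esrra became -0.0324 in FK228 versus control and 0.028 in FK228+YF versus FK228. Over the 12 libraries left out in turn, Esrra ranged from -0.0376 to 0.0631 in FK228 versus YF, -0.0156 to 0.0838 in FK228 versus control, -0.0499 to 0.039 in FK228+YF versus control and -0.00278 to 0.0861 in YF versus control. Ppara ranged from -0.0166 to 0.396 in FK228+YF versus FK228, -0.0957 to 0.246 in YF versus control and -0.057 to 0.348 in the interaction. In YF versus control, Ppard ranged from -0.0015 to 0.222 and Ppargc1a from -0.00563 to 0.0457. The cause was not tested.

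The count of genes called lower in YF versus control, 3 in all, was 1 with library totals and ranged from 0 to 3 over the libraries left out. That in FK228 versus YF, 4 in all, ranged from 2 to 4, and the count called higher in the interaction, 1 in all, from 1 to 2. Pparg in FK228 versus YF lost its call with DESeq2 (-0.53; adjusted p = 0.0501).

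Replicate numbers did not pair the libraries: deviations from the group means correlated over 0.1 in 2 of 18 same-numbered pairs. They did so in 9 of 36 pairs of unlike number, at most 0.447, between control replicate 1 and YF replicate 2. Of the 12 libraries, 2 correlated best with their own number. Whether libraries of unlike number shared a batch was not tested. With the replicate block, 62 member values kept their call, and Rxra in YF versus control missed the threshold (-0.218; adjusted p = 0.056). The block gave 2260 higher and 1796 lower genes in YF versus control, where the fit without it gave 2405 and 1952. Ppara, Pparg and Nr0b2 rest on few counts, so small changes in them were not detectable at this depth.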
